A study of Mus musculus with 6 samples.

Results

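The genes described here are 50 components of the early secretory pathway, the machinery that brings new secreted proteins into the endoplasmic reticulum (ER), folds them and sends them on to the Golgi apparatus. They were looked up by gene symbol, and all 50 were found among the 17606 genes of the expression table. Their levels were measured by bulk RNA-seq in corneal keratocytes sorted by flow cytometry from mice labelled as aged 10 weeks. One group, Ptch1-ablated, carried Prrx1-CreERT with Ptch1 to be removed by tamoxifen, and the other was the control. Both received 3 doses of tamoxifen and were examined 1 month later, with 3 libraries per group. Whether 10 weeks was the age at tamoxifen or at sorting was not settled here. The labels call the second group only ctrl, so whether the controls carried the Cre transgene or the floxed allele was not given. Prrx1-CreERT is active in stromal cells and, according to the study's text, also in corneal endothelium, so the labelled deletion is not private to keratocytes. The comparison asked how the secretory machinery of keratocytes stood after a month of Hedgehog activation.

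Keratocytes are the resident mesenchymal cells of the corneal stroma and make its collagens and proteoglycans, all of which pass through the ER. A nascent chain is threaded through the Sec61 channel, its signal peptide is removed, and lectins and disulfide isomerases help it to fold. Cargo then leaves in vesicles coated by COPII, with the help of cargo receptors such as the p24 (Tmed) proteins, while COPI vesicles and KDEL receptors return escaped ER residents. Membrane-bound sensors, among them the Ern1 and Atf6 proteins, adjust the capacity of the ER to its load.

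Library totals ran from 20258439 to 24788063 estimated counts. Every member had between 114 and 18886 counts in each library, and all 50 were among the 13888 genes tested. Groups were compared by edgeR (quasi-likelihood fit, TMM scaling), and a gene is said to have passed at an adjusted p of at most 0.05. Levels are given as CPM (counts per 1000000 of the TMM-scaled total), and comparisons between genes use TPM, which is scaled for transcript length. The 3 libraries of a group were biological replicates in the study's methods, but p-values measure only the spread between these samples. In bulk RNA, fewer cells that express a gene and less RNA per cell cannot be told apart. The gene total of Ptch1 was higher in the libraries labelled Ptch1-ablated (log2 fold change 4.47, edgeR adjusted p = 6.83e-06), which does not resolve the deleted exons. The Hedgehog targets Gli1 and Hhip stood 7.15 and 9.97 higher on the log2 scale.

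Promoter sequence was available for 43 of the 50 members, in RefSeq windows of 300 bases, from 250 bases before to 50 bases after the start of a gene (build GRCm38.p6). The stretches before the start are shown for Tmed3 and Tmed10, the p24 members whose level fell in the tests below with and without correction for transcript length, with the letters ACGTG on either strand in capitals. This 5-letter core is shared by several stress-response elements.

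Tmed3, chr9:89705044-89705293, minus strand: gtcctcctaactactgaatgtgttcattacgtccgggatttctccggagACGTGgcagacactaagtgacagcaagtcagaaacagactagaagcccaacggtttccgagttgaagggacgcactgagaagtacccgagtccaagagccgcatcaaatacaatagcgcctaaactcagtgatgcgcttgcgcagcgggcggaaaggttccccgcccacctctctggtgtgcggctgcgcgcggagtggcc
Tmed10, chr12:85374718-85374967, minus strand: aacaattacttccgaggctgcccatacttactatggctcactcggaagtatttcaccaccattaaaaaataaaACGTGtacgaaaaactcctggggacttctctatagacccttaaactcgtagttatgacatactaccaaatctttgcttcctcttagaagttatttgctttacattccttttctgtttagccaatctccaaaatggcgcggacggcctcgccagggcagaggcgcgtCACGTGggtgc

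Short stretches are shown for the members that hold the full ER stress response element (ERSE: CCAAT, 9 bases of any kind, then CCACG) before the start, with the match in capitals.

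Calr, chr8:84847055-84847113, minus strand: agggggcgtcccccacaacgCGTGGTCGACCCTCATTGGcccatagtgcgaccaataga
Canx, chr11:50325780-50325838, minus strand: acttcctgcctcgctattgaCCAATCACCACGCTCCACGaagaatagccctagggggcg
Pdia6, chr12:17266471-17266529, plus strand: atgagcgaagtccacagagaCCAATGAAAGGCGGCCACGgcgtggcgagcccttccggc

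The core of the unfolded protein response element (UPRE: TGACGTGG, which contains ACGTG) is shown in capitals for 3 further members.

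Copb1, chr7:114254681-114254728, minus strand: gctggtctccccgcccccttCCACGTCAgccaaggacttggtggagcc
Kdelr3, chr15:79516358-79516405, plus strand: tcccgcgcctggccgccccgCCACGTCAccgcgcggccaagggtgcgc
Sec24d, chr3:123267450-123267495, plus strand: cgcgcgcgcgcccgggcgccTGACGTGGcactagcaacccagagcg

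The ERSE was found in 6.38% of the 47 member windows (Calr, Canx and Pdia6), against 0.119% of all 32851 windows and 0.149% of the 14055 windows of tested genes. The UPRE core was found in 10.6% of member windows (Copb1, Copb2, Kdelr3, Sec23a and Sec24d), against 0.676% of all windows and 0.840% of those of tested genes. The ACGTG core was present in 59.6% of member windows, against 19.6% and 24.5%. The cyclic AMP element TGACGTCA was found only in Cope, in 2.13% of member windows against 1.79% of all and 2.85% of those of tested genes. The GLI site TGGGTGGTC was in no member window, in 0.253% of all windows and in 0.206% of those of tested genes. Both strands were searched, and a match describes letters in a window, not a bound site.

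Of the 50 members, 4 passed the test and all 4 fell (8.0%, where 3.80% of all genes tested passed with a lower level). Among abundant genes, those with a mean TPM of at least 50, the lower share was 4.08% to 13.1%, depending on transcript length. The 4 members were the p24 cargo receptors Tmed3, Tmed10 and Tmed9 and the translocon-associated subunit Ssr2. Only Tmed3 fell by at least 2-fold, where 2.13% of all genes passed with a fall of that size. No member passed with a higher level, where 4.68% of all genes passed and 3.36% passed with a rise of at least 2-fold. An unadjusted p under 0.05 was reached by 16 members (32%, against 20.6% of all genes), 13 with a negative and 3 with a positive log2 fold change. DESeq2 gave 6 members lower and 0 higher, where 5.6% of all genes were lower and 6.9% higher. Leaving out 1 library at a time left 1 to 3 members lower, with only Tmed3 left without control replicate 1 or control replicate 2, 2 left without any one ablated library, and Sec24b higher without control replicate 1. The log2 fold changes of the members ran from -1.11 to 0.49 with a median of -0.15, against a median of 0.005 over all genes tested, and 35 of the 50 were negative. Every ablated library lay below every control library for 14 members (28.0%, against 13.3% of all genes) and above for 5 (10.0%, against 14.1%). The 95% interval of the log2 fold change lay within 1 either way for 43 of the 50 members (86.0%, against 44.3% of all genes). Members were measured more precisely than most genes, with a median standard error of 0.175 against 0.303 over all genes tested.

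Scaling moved these counts. With library totals in place of TMM the median of all genes stood 0.17 higher on the log2 scale, and the share of passed genes with a higher level went from 55.2% to 72.6%. Under that scaling only Tmed3 passed among the lower members, and Sec24d, Sec16a and Copg1 passed as higher, where 7.37% of all genes did. With limma on log2(TPM + 1), where the share was 72.8%, Tmed3 was again the only lower member. Sec24d, Copg1 and Ddit3 passed as higher in that fit, where 8.5% of all genes did. The member median relative to the median of all genes stayed between -0.23 and -0.11 over all 16 alternative fits.

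**Figure D1:**
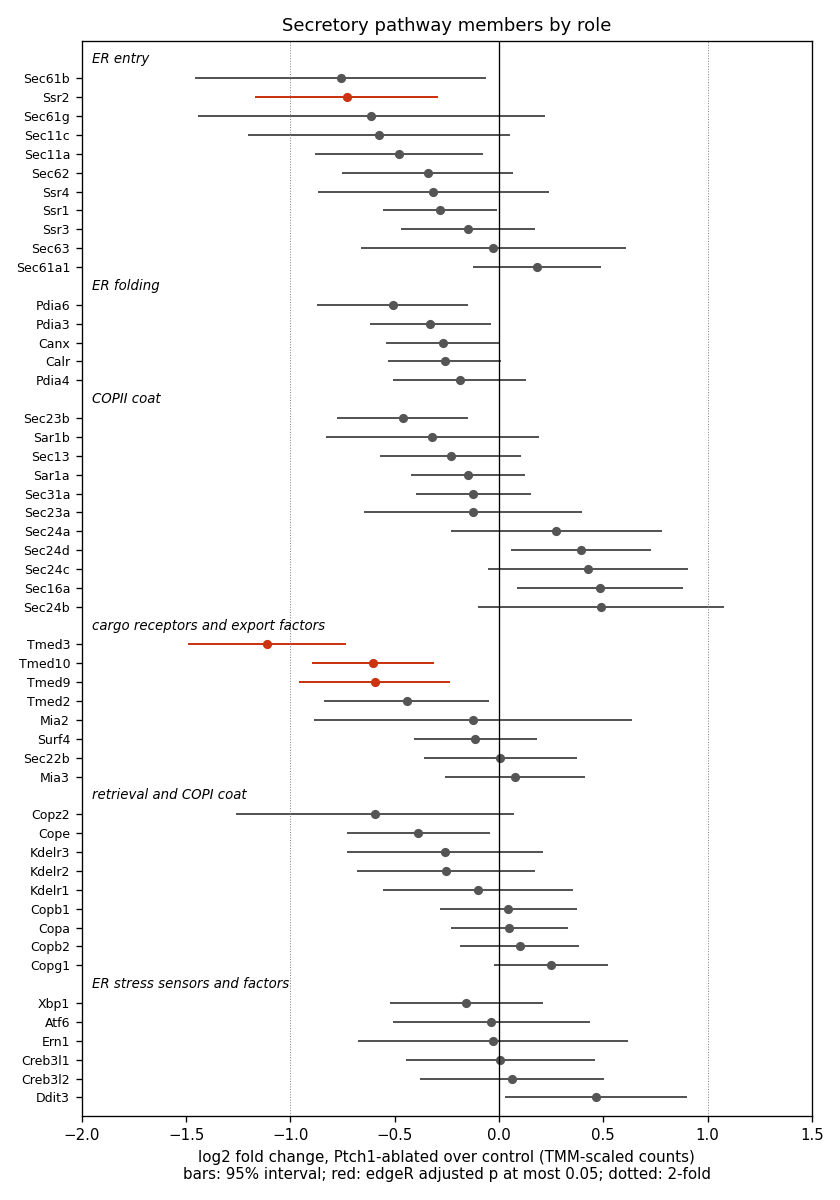
Log2 fold change of each of the 50 members, Ptch1-ablated over control, on TMM-scaled counts, grouped by role, with the 95% interval as a bar (n = 3 per group). Red points are the 4 members that passed the edgeR test, dotted lines mark a 2-fold change, and only Tmed3 lies beyond one of them.

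Of the 8 cargo receptors and export factors 3 were lower, where 3.80% of all genes passed as lower. Among these 3 was the member with the largest log2 fold change of the 50. Tmed3 (Entrez 66111) is a p24 protein that cycles between ER and Golgi in coated vesicles. It had 353, 305 and 292 CPM in control replicates 1 to 3 and 174, 114 and 152 CPM in the ablated ones. The highest ablated library thus stood well below the lowest control. The log2 fold change was -1.11 (95% interval -1.49 to -0.74, edgeR adjusted p = 0.00136), a 2.16-fold fall, and Tmed3 passed in all 16 alternative fits, with values between -1.25 and -0.92.

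Tmed10 (Entrez 68581), the p24 subunit needed for the traffic of GPI-anchored proteins, had 480, 444 and 382 CPM in controls and 269, 292 and 298 CPM in ablated libraries. The groups did not overlap, and the log2 fold change was -0.60 (95% interval -0.89 to -0.32, edgeR adjusted p = 0.0133). Tmed10 passed in 10 of the 16 alternative fits, with adjusted p values from 9.57e-05 to 0.0932. The call was lost without control replicate 1 (0.0536), control replicate 2 (0.0692) or ablated replicate 1 (0.0602). Tmed9 (Entrez 67511), another p24 subunit, had 86.9, 80.6 and 79.1 CPM in controls and 53.8, 52.8 and 56.5 CPM in ablated libraries. The spread within each group was small, and the log2 fold change was -0.60 (95% interval -0.95 to -0.24, edgeR adjusted p = 0.0426). This call stood near the threshold and passed in only 4 of the 16 alternatives, being lost whichever library was left out (edgeR adjusted p from 0.0804 to 0.126).

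Tmed2, the remaining p24 member, had 390, 337 and 259 CPM in controls and 289, 233 and 203 CPM in ablated libraries. These groups overlapped, and its log2 fold change of -0.44 (95% interval -0.83 to -0.05) did not pass (edgeR adjusted p = 0.177). The p24 family has 4 more genes in a wider list of the pathway, of which Tmed1 (-0.76, edgeR adjusted p = 0.0309) and Tmed4 (-0.67, 0.0341) fell, while Tmed7 (-0.23, 0.683) and Tmed5 (0.20, 0.623) did not pass. Thus 5 of the 8 p24 genes were lower and 0 higher, where 3.80% of all genes passed as lower and 4.68% as higher. The family was grouped here after its values were seen. In all 16 alternative fits 7 of the 8 had a negative log2 fold change and Tmed5 a positive one.

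**Figure D2:**
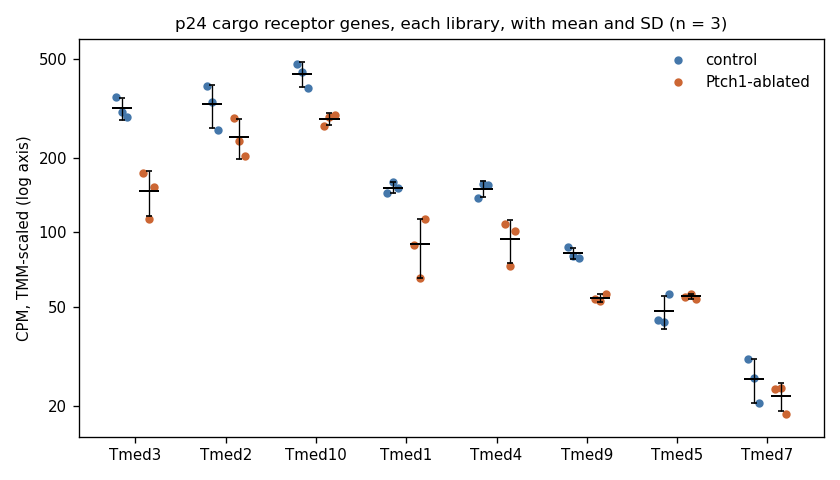
CPM of the 8 p24 genes in each library on a log axis, ordered by mean TPM in controls, with the group mean and SD (n = 3). Ablated libraries lie below all controls for Tmed3, Tmed10, Tmed1, Tmed4 and Tmed9 and overlap them for Tmed2, Tmed5 and Tmed7.

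The other export factors stood close to the control level. Surf4, a receptor for soluble cargo and the member with the highest mean TPM over both groups, had 595, 692 and 643 CPM in controls and 694, 555 and 535 CPM in ablated libraries. The groups overlapped, with a log2 fold change of -0.11 (95% interval -0.41 to 0.18). Mia3, also called TANGO1, which helps to load bulky collagens into COPII carriers, had 117, 114 and 114 CPM in controls and 107, 136 and 121 CPM in ablated libraries. Its log2 fold change was 0.08 (95% interval -0.26 to 0.41). Its partner Mia2 was more variable (-0.13, 95% interval -0.88 to 0.63), and the SNARE protein gene Sec22b stood at 0.0050 (-0.36 to 0.37).

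Shares within the Tmed2, Tmed3, Tmed9 and Tmed10 group were compared, and no share passed. On the TPM scale Tmed3 made up 42.4%, 41.5% and 44.9% of the summed level in controls and 35.3%, 28.3% and 35.5% in ablated libraries, so that its mean share dropped by 9.92 percentage points. The share of Tmed2 went from 27.6 ± 2.36% to 34.2 ± 3.89% (SD, n = 3 each). Neither pair of groups overlapped, which gives p = 0.1 in an exact two-sided permutation test, the smallest that 3 against 3 libraries allow. After adjustment over the 16 shares tested in 8 families this p was 0.80. The share of Tmed2, whose own level was not higher, overlapped between the groups when computed from CPM. Shares within the Sar1, Sec23, Sec24, KDEL receptor, Sec11, Creb3l and Copz families overlapped between the groups.

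The median log2 fold change of ER entry genes was -0.34, with 10 of 11 negative, 1 lower by the test and 0 higher. Ssr2 (Entrez 66256) encodes the beta subunit of the translocon-associated complex beside the Sec61 channel. It had 109, 111 and 80.0 CPM in controls and 73.2, 52.8 and 55.1 CPM in ablated libraries. The lowest control was only slightly above the highest ablated library, and the log2 fold change was -0.73 (95% interval -1.16 to -0.30, edgeR adjusted p = 0.0414). Ssr2 passed in 7 of 16 alternative fits and lost its call without control replicate 1 (0.109), control replicate 2 (0.163), ablated replicate 2 (0.144) or ablated replicate 3 (0.148). The other subunits Ssr1 (-0.28), Ssr3 (-0.15) and Ssr4 (-0.31) did not pass.

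Sec61a1, the pore-forming subunit and the most abundant entry gene by TPM, had 583, 741 and 588 CPM in controls and 805, 639 and 725 CPM in ablated libraries. The groups overlapped, and its log2 fold change of 0.18 (95% interval -0.12 to 0.48) was the only positive one in the group. The small subunits Sec61b (-0.76, 95% interval -1.45 to -0.07, edgeR adjusted p = 0.193) and Sec61g (-0.61, -1.44 to 0.22, 0.413) had wide intervals that reach beyond a 2-fold fall. The signal peptidase genes Sec11a (-0.48, edgeR adjusted p = 0.151) and Sec11c (-0.58, 0.287) were lower in each ablated library than in each control without passing. Sec62 and Sec63, which assist post-translational entry, had log2 fold changes of -0.34 and -0.03 with intervals that include 0.

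All 5 folding genes had a negative log2 fold change (median -0.27), none passed in the edgeR fit, and Pdia4 turned slightly positive with limma on TPM. Calr encodes calreticulin, a lectin chaperone of the ER lumen, and had the highest TPM of the group. It had 415, 447 and 428 CPM in controls and 388, 334 and 356 CPM in ablated libraries. All ablated libraries stood below all controls, but the log2 fold change of -0.26 (95% interval -0.53 to 0.0070) did not pass (edgeR adjusted p = 0.257). Its membrane-bound relative Canx (-0.27, edgeR adjusted p = 0.237) and the disulfide isomerases Pdia3 (-0.33, 0.170) and Pdia6 (-0.51, 0.0842) likewise had groups that did not overlap. Pdia6 passed with DESeq2 (adjusted p = 0.0187) and in no other alternative.

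The COPII coat held negative and positive values side by side, and 0 of 11 members passed. The 4 Sec24 isoforms, the subunits that recognise cargo, had log2 fold changes of 0.27 (Sec24a), 0.49 (Sec24b), 0.43 (Sec24c) and 0.39 (Sec24d), and all were positive in the 16 alternative fits too. Sec24d had 158, 185 and 220 CPM in controls and 258, 249 and 232 CPM in ablated libraries. The groups stood apart, with a 95% interval of 0.06 to 0.72 for the log2 fold change and an edgeR adjusted p of 0.157, and Sec24d passed under 3 of the alternatives. Sec24b had 73.8, 33.1 and 42.6 CPM in controls and 69.4, 78.3 and 62.1 CPM in ablated libraries. Control replicate 1 lay among the ablated libraries, and without it Sec24b passed with a log2 fold change of 0.88 (edgeR adjusted p = 0.0302).

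Sec16a, which marks the exit sites where COPII assembles, had 77.0, 115 and 90.3 CPM in controls and 139, 140 and 116 CPM in ablated libraries, just without overlap. Its log2 fold change was 0.48 (95% interval 0.09 to 0.88, edgeR adjusted p = 0.140). The inner coat gene Sec23b went the other way, with 137, 143 and 138 CPM in controls and 104, 102 and 96.1 CPM in ablated libraries. Both groups were tight and well apart, and the log2 fold change was -0.46 (95% interval -0.77 to -0.15), with an edgeR adjusted p of 0.0700 in this fit and a pass in 3 of 16 alternatives. Its paralog Sec23a had 110, 201 and 233 CPM in controls and 165, 145 and 189 CPM in ablated libraries, a log2 fold change of -0.12 (95% interval -0.64 to 0.39).

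Sar1a, the small GTPase that starts coat assembly and the most abundant COPII gene by TPM, had 387, 411 and 421 CPM in controls and 364, 341 and 395 CPM in ablated libraries. The groups overlapped, with a log2 fold change of -0.15 (95% interval -0.42 to 0.12). Sar1b (-0.32), Sec13 (-0.23) and Sec31a (-0.12), the latter forming the outer cage, did not pass either.

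Of the retrieval and COPI genes 0 of 9 passed, and their median was -0.10 on the log2 scale. Cope, a coatomer subunit with the highest TPM of this group, had 251, 234 and 217 CPM in controls and 175, 152 and 211 CPM in ablated libraries. The groups were narrowly apart, and the log2 fold change of -0.39 (95% interval -0.72 to -0.05) did not pass (edgeR adjusted p = 0.171). Another coatomer subunit, Copg1, had 338, 364 and 353 CPM in controls and 448, 381 and 423 CPM in ablated libraries, apart in the other direction. Its log2 fold change was 0.25 (95% interval -0.02 to 0.52, edgeR adjusted p = 0.287), and it passed as higher in 3 of 16 alternatives. The large subunits Copa (0.05), Copb1 (0.04) and Copb2 (0.10) lay near 0, with intervals inside -0.28 to 0.38, and Copz2 stood at -0.60 (-1.26 to 0.07). The 3 KDEL receptors had log2 fold changes of -0.10 (Kdelr1), -0.26 (Kdelr2) and -0.26 (Kdelr3), all with overlapping groups, and Kdelr1 changed sign in 4 of 16 alternatives.

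The ER stress sensors and factors had a median log2 fold change of -0.01 and 0 of 6 passed. Xbp1, the transcription factor activated by Ern1 splicing, had 317, 271 and 219 CPM in controls and 279, 214 and 231 CPM in ablated libraries. The groups overlapped (log2 fold change -0.16, 95% interval -0.52 to 0.21), and gene totals do not separate its spliced form. The collagen-secretion regulators Creb3l1 (0.0060, 95% interval -0.44 to 0.46) and Creb3l2 (0.06, -0.38 to 0.50) and the sensors Atf6 (-0.04, -0.50 to 0.43) and Ern1 (-0.03, -0.67 to 0.61) had intervals within a 2-fold change. Ddit3, which encodes the stress factor CHOP, had 34.5, 31.2 and 30.5 CPM in controls and 46.9, 41.0 and 44.8 CPM in ablated libraries. The groups were apart with a log2 fold change of 0.46 (95% interval 0.03 to 0.90), which did not pass (edgeR adjusted p = 0.201) except in 3 of 16 alternatives.

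Transcript length moved with these values. Over all tested genes the median log2 fold change was -0.51 for effective lengths under 500 bases, -0.31 for 500 to 1000, -0.09 for 1000 to 2000, 0.04 for 2000 to 4000 and 0.15 above 4000. The members followed the same order, with medians of -0.76 (1 gene), -0.53 (8), -0.26 (11), -0.12 (19) and 0.05 (11), each below the median of all genes in its bin. The Sec24 isoforms and Sec16a are among the long transcripts (3714 to 8481 bases), and Sec61b (318), Sec61g (520), Ssr2 (839) and Tmed3 (1090) among the short ones. When the length trend was removed from the counts before the test, an alternative chosen after seeing the data, Tmed3 (-0.94, edgeR adjusted p = 0.00153) and Tmed10 (-0.68, 0.00766) still fell. Tmed9 (-0.45, 0.0861) and Ssr2 (-0.46, 0.161) no longer passed. Ssr1 (-0.43, edgeR adjusted p = 0.0221), Canx (-0.38, 0.0405) and Sec23b (-0.46, 0.0426) passed as lower in that fit, and Ddit3 (0.71, 0.0319) passed as higher. What set the length trend was not tested.

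**Figure D3:**
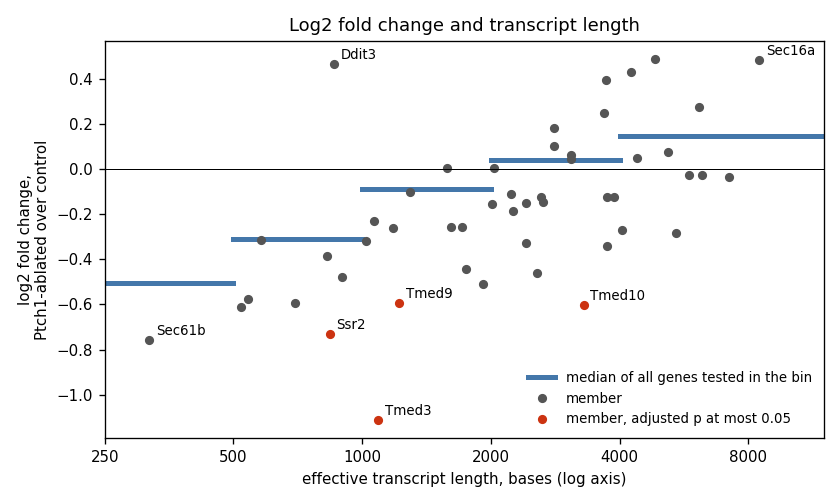
Log2 fold change (Ptch1-ablated over control) against effective transcript length in bases on a log axis, with points for the 50 members and bars for the median of all genes tested in each of 5 length bins. The bars climb from -0.51 to 0.15, and Tmed3 and Tmed10 lie far below the bars at their lengths.

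A wider list of 83 other genes of the same pathway, 82 of them in the table, held 9 lower genes (11.0%) and 0 higher ones. Of all genes tested 3.80% passed as lower and 4.68% as higher. Among the abundant genes defined above, the lower share was 4.08% to 13.1%, depending on transcript length. The median of the wider list was -0.12 on the log2 scale. Trib3, a pseudokinase induced by stress signalling, had 413, 379 and 348 CPM in controls and 159, 120 and 119 CPM in ablated libraries. The groups were far apart, and it was the only gene of this list to fall by at least 2-fold (log2 fold change -1.52, edgeR adjusted p = 5.88e-05). Manf, a soluble ER stress factor, fell from 90.6 to 46.2 CPM on average (-0.97, edgeR adjusted p = 0.00401). Herpud1, which acts in ER-associated degradation (-0.56, edgeR adjusted p = 0.00944), and the export receptor Ergic3 (-0.66, 0.00842) fell as well. Of the 12 other ER stress genes in the list, 6 had a negative and 6 a positive log2 fold change. Atf3 (0.74, edgeR adjusted p = 0.138), Ppp1r15a (0.42, 0.114) and Creb3l3 (2.12, 0.115) were higher in each ablated library than in each control without passing. Creb3l3 had a low level, with means of 1.13 CPM in controls and 4.91 CPM in ablated libraries. These 3 were 25% of the 12, against 14.1% of all genes. Trib3 and Creb3 (-0.59, edgeR adjusted p = 0.0781, not passed) were lower in each ablated library (16.7%, against 13.3% of all genes). The ER chaperone gene Hspa5 stood at -0.11 (edgeR adjusted p = 0.733). The oligosaccharyltransferase, which glycosylates new chains at the translocon, was lower in Ddost (-0.72, edgeR adjusted p = 0.00705), Stt3b (-0.69, 0.0398) and Rpn2 (-0.49, 0.0265), 3 of its 7 listed genes, a set formed after its values were seen and set beside the 3.80% of all genes that passed as lower. Ddost, Manf and Trib3 passed in all 16 alternatives, Ergic3 in 15, Herpud1 in 13, Tmed1 in 9, Stt3b and Tmed4 in 8 each and Rpn2 in 7. With DESeq2, 14 genes of this list were lower and 3 higher, where 5.6% of all genes were lower and 6.9% higher. Leaving out 1 library gave 3 to 7 lower, with 3 without control replicate 2 and 5 without ablated replicate 2, and 1 higher without control replicate 3.

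The summed level of the machinery was set beside that of its cargo. The 50 members together had 9585, 9788 and 9368 TPM in controls and 9792, 9296 and 9005 TPM in ablated libraries, which overlap. A list of 20 stromal cargo genes, mostly collagens and small leucine-rich proteoglycans, had 117000, 122600 and 144200 TPM in controls and 97080, 95960 and 104700 TPM in ablated libraries, without overlap. Of the 20 cargo genes 11 fell and 3 rose (median log2 fold change -0.76), Col1a1 among those that fell (-1.06, edgeR adjusted p = 6.86e-05). Over all genes tested 3.80% passed as lower and 4.68% as higher. Per 100 TPM of cargo the members had 7.56 ± 0.93 TPM (SD, n = 3) in control libraries and 9.46 ± 0.77 in ablated ones. With CPM in place of TPM these ratios were 5.52 ± 0.45 and 7.92 ± 0.16, and the members' own sum of 10410 ± 316 against 9362 ± 422 CPM did not overlap between the groups. By role, the summed TPM of cargo receptors and export factors went from 2150 ± 81.5 to 1820 ± 171 and that of the COPII coat from 1329 ± 98.6 to 1459 ± 29.5 (SD, n = 3 each), without a test.

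**Figure D4:**
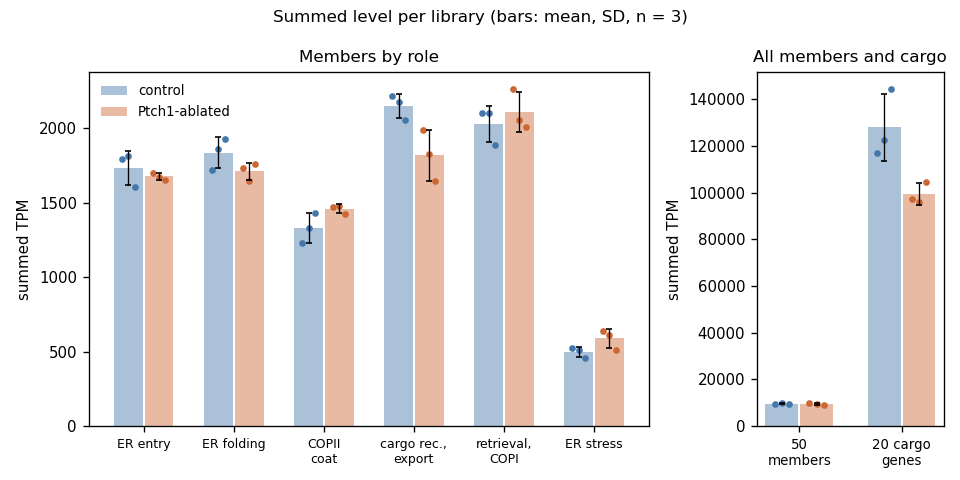
Summed TPM per library for each role of the members (left) and for all 50 members beside 20 stromal cargo genes (right), with bars for group means, SD and points for the 3 libraries per group. Cargo receptors fall below all controls in each ablated library, the TPM sum over all members overlaps, unlike the same sum in CPM, and the cargo sum does not.

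Markers of other cells moved between the groups as well, and their counts stand beside 3.80% of all genes that passed as lower and 4.68% as higher. Keratocyte markers passed as lower in 6 of 7 cases, with a summed level of 61370 to 65030 TPM in controls and 42590 to 47100 TPM in ablated libraries. The exception was Lum. Corneal epithelial markers summed to 50.8 to 89.3 TPM in controls and 3.50 to 8.99 TPM in ablated libraries, with 3 of 6 tested lower and 1 higher. The lower ones were Krt5, Krt14 and Krt15. The higher one was Krt12, at 0 counts in all controls and 21, 49 and 52 counts in ablated libraries (edgeR adjusted p = 0.0177). Summed levels were 438 to 516 against 834 to 917 TPM for mural cells (2 of 5 higher), 45.2 to 53.6 against 93.8 to 109 TPM for corneal endothelium (1 of 4 higher) and 37.4 to 56.6 against 97.0 to 121 TPM for Schwann cells (1 of 4 higher). Vascular endothelium gave 270 to 383 against 383 to 452 TPM (2 of 5 higher) and leukocytes 234 to 280 against 309 to 356 TPM (1 of 5 higher), while melanocyte markers summed to at most 5.59 TPM with Dct and Mlana at 0 in most libraries. In CPM, vascular endothelial sums were 589.8 to 798.5 in controls and 634.2 to 715.6 in ablated libraries, which overlap. Leukocyte sums overlapped as well, at 331.6 to 423.2 against 411.5 to 504.7 CPM. Sums of mural, corneal endothelial and Schwann cell markers stayed apart in CPM. The vascular marker Kdr was lower in each ablated library without passing (-0.40, edgeR adjusted p = 0.112). It made up most of the vascular CPM sum, with means of 553 CPM in controls and 420 CPM in ablated libraries. The other 4 vascular markers were each higher in every ablated library than in every control (80% of the 5, against 14.1% of all genes). Secretory genes are used by all of these cells, and the part of the markers in the members' results was not tested.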

How the data were processed

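RNA of sorted corneal keratocytes was measured in 6 mouse libraries, 3 control and 3 Ptch1-ablated, grouped by sample title. The labels name an Illumina TruSeq kit for the libraries, whereas the study's methods describe ribosomal RNA depletion and a BGISEQ platform, a difference that could not be settled from the values. Per the submitters' processing notes, the authors used Bowtie2 2.2.5 and RSEM 1.2.12 with genome build mm9. Annotation release and strand setting were not given in the sources used here, so values of overlapping genes and of near-identical paralogs are uncertain. In the deposited table, expected counts from RSEM are raw (18.6% were not whole numbers, within 0.001), TPM values were normalized by the authors for transcript length within a fixed library sum, and FPKM values by the authors for length and depth. The authors' group means were not used, and no column belonged to another series.

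Expected counts were rounded, genes were kept by filterByExpr, and groups were compared with edgeR 4.0.16 (TMM, then glmQLFTest without covariates, two-sided). Adjusted p-values are Benjamini-Hochberg values over the 13888 tested genes. Intervals are 95% intervals of the log2 fold change. The effective length of a gene was derived from its deposited counts per FPKM. Totals of 20258439 to 24788063 counts limit precision at low levels, but each member had at least 114 counts per library. Shares within paralog families were compared by exact permutation tests. The alternatives were DESeq2 1.42.0, RLE and upper quartile scaling, library totals only, no count filter, a filter at a mean of 50 counts, limma 3.58.1 on log2(TPM + 1) and log2(TPM + 0.1), a replicate block and leaving out each library. A lowess correction for length (span 0.3) was chosen after seeing the data. The tests were checked on simulated data. The members, roles and lists were chosen with earlier results of these data known. Values per library were given for members that passed and for the member with the highest TPM in each role, and for other members chosen after their values were seen. Promoter letters came from RefSeq (GRCm38.p6), a build other than that of the files, so no coordinates were taken from the files. No promoter entry was matched for Sec61a1, Ssr2, Sec11c, Tmed2, Kdelr2, Creb3l1 and Atf6.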

Additional observations from a re-analysis of the deposited data

How the results depend on the processing

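Tmed3 stayed lower and passed in all 16 alternative fits, Tmed10 passed in 10, Ssr2 in 7 and Tmed9 in 4, and these 4 genes were negative throughout. Precision is limited by 3 libraries per group and by the choice of scaling, which moves the median of all genes. With library totals only, 1 member was lower and 3 higher, 5 other pathway genes were lower and 3 higher, and 1024 genes of all tested were higher. With limma on log2(TPM + 1) these counts were 1, 3, 5, 4 and 1181, and on log2(TPM + 0.1) 1, 3, 4, 4 and 1041. DESeq2 gave 14 lower and 3 higher among the other pathway genes. Demanding at least 2-fold or an adjusted p of at most 0.01 left 1 member lower, and the length correction gave 1 member higher. Why the scalings differ was not tested.

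Same-numbered control and ablated libraries did not deviate together from their group means (correlations of -0.05, -0.05 and 0.04 for numbers 1 to 3). Differently numbered pairs gave values from -0.043 to 0.066. These values cannot show whether same-numbered samples shared a preparation or another step of handling. With the replicate block, 2 members (Tmed3 and Tmed10) were lower and 0 higher, 7 other pathway genes were lower and 1 higher, and 423 genes of all tested were lower and 519 higher. The sign of Sec63 turned (0.047).

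Leaving out 1 library at a time gave 327 to 439 genes lower and 424 to 587 higher, 1 to 3 members lower and 0 to 1 higher, and 3 to 7 other pathway genes lower and 0 to 1 higher. Median log2 fold changes then ran from -0.46 to -0.27 (ER entry), -0.14 to 0.10 (COPII coat, positive without control replicate 3), -0.40 to -0.31 (cargo receptors) and -0.22 to -0.12 (all members).

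Role medians also depended on the scaling. With library totals only they were -0.17 (ER entry), -0.099 (ER folding), 0.051 (COPII), -0.11 (cargo receptors), 0.068 (retrieval and COPI), 0.15 (ER stress) and 0.012 (all members). In the same order, limma on log2(TPM + 1) gave -0.13, -0.055, 0.15, -0.060, 0.11, 0.22 and 0.060, and on log2(TPM + 0.1) -0.13, -0.055, 0.15, -0.058, 0.11, 0.23 and 0.060. Upper quartile scaling gave -0.20 for all members, and the length correction -0.20 for ER entry. On CPM in place of TPM, the log2 ratio of summed levels was -0.15 for all members, -0.68 for cargo, -0.30 for ER folding, 0.018 for COPII, -0.38 for cargo receptors and -0.031 for ER stress.

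Members near 0 that did not pass turned sign under some settings. With library totals only, log2 fold changes were Sec63 0.15, Ssr3 0.023, Sar1a 0.020, Sec23a 0.051, Sec31a 0.043, Mia2 0.057, Surf4 0.054, Kdelr1 0.068, Xbp1 0.0040, Atf6 0.14 and Ern1 0.14. With limma on log2(TPM + 1) they were Sec63 0.23, Ssr3 0.073, Pdia4 0.030, Sar1a 0.061, Sec23a 0.15, Sec31a 0.085, Mia2 0.10, Surf4 0.11, Kdelr1 0.11, Xbp1 0.058, Atf6 0.18 and Ern1 0.23, and on log2(TPM + 0.1) they were Sec63 0.26, Ssr3 0.073, Pdia4 0.030, Sar1a 0.062, Sec23a 0.15, Sec31a 0.085, Mia2 0.11, Surf4 0.12, Kdelr1 0.11, Xbp1 0.059, Atf6 0.20 and Ern1 0.26. Upper quartile scaling gave Sec22b -0.040, Copb1 -0.0020 and Creb3l1 -0.042, and the length correction Ssr4 0.061, Mia3 -0.073, Kdelr1 0.031, Copa -0.073 and Copb1 -0.0060. Leaving out 1 library at a time gave ranges of Sec63 -0.25 to 0.35, Sec23a -0.38 to 0.098, Mia2 -0.33 to 0.30, Mia3 -0.0080 to 0.16, Sec22b -0.13 to 0.11, Copa -0.041 to 0.13, Copb1 -0.015 to 0.14, Creb3l1 -0.15 to 0.14, Creb3l2 -0.18 to 0.21, Atf6 -0.20 to 0.13 and Ern1 -0.23 to 0.21.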

Other observations

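Control replicate 1 stood apart for several COPII genes, a choice of genes made after their values were seen. Its level was 110 CPM for Sec23a, against 201 and 233 in the other controls. Sec24c had 101 CPM in that library and 178 and 194 in the others, while Sec24b had 73.8 there and 33.1 and 42.6 in the others. The share of Sec24b within the summed Sec24 TPM was 17.7% in control replicate 1, 6.58% and 7.23% in the other controls, and 9.86% to 11.1% in the ablated libraries.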
